A study of Mus musculus with 8 samples.

Results

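Transcript levels of 34 genes of mitosis and of the passage from G2 into mitosis were described in 2 tissues, neural tube and paraxial tissue, of mouse embryos that were wild type or labelled as conditional mutants of Geminin. The genes were chosen by name: every probe of the array that carries 1 of the 34 gene symbols and is not a control was taken, which gave 48 of 55681 probes. All 34 genes could be measured, among 28940 genes tested in all, and 47 of their 48 probes were kept, those well above background in at least 1 group. The second probe of Nuf2 stayed below that limit on all 8 arrays and was left out. A gene with several kept probes was represented by its brightest one.

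Cells enter mitosis when the kinase Cdk1, bound to a B-type cyclin and freed of inhibitory phosphates by Cdc25 phosphatases, becomes active. Aurora and Polo kinases then build the spindle, kinetochores attach chromosomes to it, the spindle checkpoint holds anaphase back until all are attached, and the anaphase promoting complex with Cdc20 releases them before the central spindle guides cytokinesis. Most of these genes are transcribed in G2 and mitosis and kept low in resting and early G1 cells, through promoter elements called the CHR (cell cycle genes homology region) and the CCAAT box, so that in tissue their transcripts follow the share of dividing cells. The early neural tube is an epithelium of cycling progenitors from which neurons leave the cycle, and the paraxial tissue holds the cells that form vertebrae and muscle.

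The study asked how conditional loss of Geminin, a protein that restrains DNA replication licensing and is destroyed as cells leave mitosis, altered gene expression in these tissues. Embryos of strain C57BL/6 were taken at E10.5, an embryonic day of midgestation, and each tissue was cut out separately with a laser. Each of the 4 groups, neural tube and paraxial tissue of either genotype, had 2 arrays, from 2 wild-type and 2 mutant embryos that gave both tissues. The mutant genotype is written fl/fl; cre/o in the labels, which name neither the cre driver nor the part of the gene that was deleted, nor say whether wild-type embryos carried a floxed allele or a cre.

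The share of probes well above background was 71.5% to 77.9%, and no spot was saturated. Within a tissue this share was smaller on the mutant arrays than on the wild-type ones, at 71.5% to 74.0% over the 4 mutant arrays and 73.6% to 77.9% over the 4 wild-type ones. The part of this in the results below was not tested. All 8 arrays shared 1 slide, with the embryos numbered 1 in its first row and the embryos numbered 2 in its second, so that slide row and embryo number cannot be told apart. Gmnn, which encodes Geminin, had scaled log2 signals of 12.35 and 12.24 in wild type and 12.10 and 11.80 in mutants in neural tube, and of 12.20 and 11.88 in wild type and 11.42 and 11.39 in mutants in paraxial tissue. In both tissues the mutant values lay below the wild-type values, and neither difference passed the test (-0.35 ± 0.25 in neural tube, limma adjusted p = 0.921; -0.63 ± 0.25 in paraxial tissue, limma adjusted p = 0.996; log2, SE of the model). Whether the Gmnn probe lies inside the deleted part is not given in the sources used here. Markers of the captured tissues followed the labels: the summed signal of 16 neural progenitor genes was 419842 to 486399 on the neural tube arrays and 241986 to 298014 on the paraxial ones, and that of 14 genes of differentiating muscle was 11438 to 25039 and 77332 to 300147.

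Signals are given as log2 of the processed intensity, scaled so that the 75th percentile of each array agrees, and differences between groups are differences of such values. Levels of different genes are not compared, since each probe has its own response. A gene was called when its limma p-value, adjusted by the Benjamini-Hochberg method over all 28940 genes, was below 0.05. Of the 34 genes, 33 were well above background on all 8 arrays. Cenpf was well above background on the 4 neural tube arrays and on none of the 4 paraxial arrays.

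**Figure D1:**
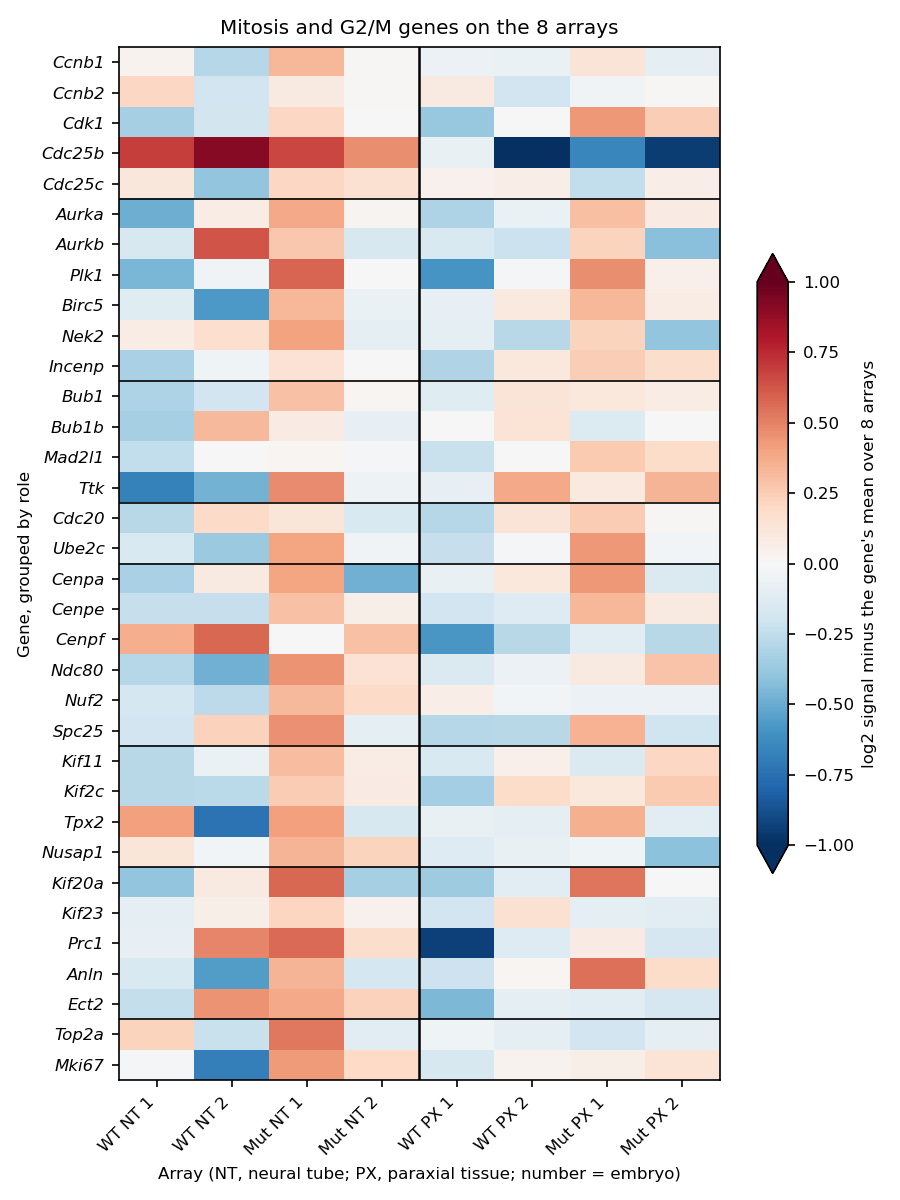
Each row is a gene and each column an array (NT, neural tube; PX, paraxial tissue; Mut, mutant; WT, wild type; the number is that of the embryo), and colour gives the scaled log2 signal minus the gene's mean over the 8 arrays, with values beyond 1 drawn in the darkest colour. Horizontal lines separate the functional groups. The column of mutant neural tube 1 is red in most rows, with a mean of 0.33 over the 34 genes. Cdc25b is higher in neural tube than in paraxial tissue. Cenpf also reads higher there, but it was not well above background on any paraxial array.

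The promoters of these genes show what they share beyond their names. RefSeq promoter windows (build GRCm38.p6, 250 bases before to 50 bases after the transcription start) were at hand for 29 of the 34 genes; Aurkb, Kif20a, Cdc25c, Tpx2 and Incenp had none. The core of the CHR, TTTGAA on either strand, was present in 20 of the 29 genes (69.0%), against 20.2% of 27025 genes with a window. CCAAT on either strand was present in 22 of the 29 (75.9%) against 41.1% of all genes, at least 2 copies of it in 15 (51.7%) against 13.3%, and both motifs in the same window in 17 (58.6%) against 7.97%. A CCAAT and a reverse complement of it can share letters, as happens in Ube2c, and a match is a match of letters only. Of 34 S phase genes with a window, 14.7% held TTTGAA and 52.9% CCAAT, while of 69 other G2 and mitosis genes 53.6% and 66.7% did. The 250 bases before the start of 5 genes that recur below are shown, 5′ to 3′ on the strand of the gene, with both motifs in capitals, read on either strand, so that they can also stand as their reverse complements. Cdk1, Cdc20, Ube2c and Prc1 hold both motifs. Cdc25b, the gene that differed most between tissues, holds 1 CCAAT and no TTTGAA.
Cdk1 (chr10:69352913-69353162, minus strand): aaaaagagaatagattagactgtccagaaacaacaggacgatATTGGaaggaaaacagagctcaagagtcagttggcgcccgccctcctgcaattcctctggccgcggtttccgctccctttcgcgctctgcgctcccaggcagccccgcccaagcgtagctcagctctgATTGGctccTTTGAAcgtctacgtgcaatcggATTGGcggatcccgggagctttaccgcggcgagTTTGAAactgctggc
Cdc20 (chr4:118437344-118437593, minus strand): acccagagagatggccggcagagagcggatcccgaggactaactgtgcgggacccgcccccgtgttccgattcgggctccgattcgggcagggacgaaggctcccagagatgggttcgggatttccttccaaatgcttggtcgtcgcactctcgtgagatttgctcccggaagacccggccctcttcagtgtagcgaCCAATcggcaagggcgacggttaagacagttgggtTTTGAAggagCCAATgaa
Ube2c (chr2:164769679-164769928, plus strand): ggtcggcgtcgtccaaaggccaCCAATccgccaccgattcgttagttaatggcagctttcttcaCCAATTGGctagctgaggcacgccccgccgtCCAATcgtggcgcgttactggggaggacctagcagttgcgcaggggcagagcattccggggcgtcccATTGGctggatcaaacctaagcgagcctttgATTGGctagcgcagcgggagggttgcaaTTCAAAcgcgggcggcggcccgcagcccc
Prc1 (chr7:80294226-80294475, plus strand): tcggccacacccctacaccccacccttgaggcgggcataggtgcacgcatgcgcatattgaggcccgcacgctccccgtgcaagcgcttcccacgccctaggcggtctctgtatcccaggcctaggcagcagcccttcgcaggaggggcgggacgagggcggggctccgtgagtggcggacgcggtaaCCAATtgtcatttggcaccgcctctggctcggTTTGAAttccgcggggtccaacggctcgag
Cdc25b (chr2:131186698-131186947, plus strand): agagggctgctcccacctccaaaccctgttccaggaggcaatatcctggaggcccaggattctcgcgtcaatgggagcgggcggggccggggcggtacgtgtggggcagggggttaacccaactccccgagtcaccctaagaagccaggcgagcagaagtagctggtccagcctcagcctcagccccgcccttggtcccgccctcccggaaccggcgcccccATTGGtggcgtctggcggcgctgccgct
In Cdc20 the TTTGAA begins 18 bases before the start and lies between CCAAT copies at 53 and 8 bases before it. In Cdk1 the TTTGAA copies begin 71 and 15 bases before the start, and in Ube2c 6 copies of CCAAT stand in the window. For Prc1 the table gives 2 starts, of which the downstream one is shown.

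Between tissues, 3 of the 34 genes were called on average over both genotypes, and each read higher in neural tube. They were Cdc25b, a phosphatase that activates Cdk1 and is known in the neural tube from progenitors, Cenpf, a kinetochore and nuclear matrix protein of G2 and mitosis, and Prc1, which bundles microtubules in the central spindle. Cenpf passed the background filter only through its neural tube arrays, so its call is no support for a difference between tissues. The other 31 were not called, and the median difference of the 34 was -0.0019, with 16 higher and 18 lower in neural tube. Without Cenpf the median of 33 genes was -0.0020, with 15 higher and 18 lower. Among all genes, 11.9% were called in this comparison (5.94% higher in neural tube and 6% lower), and the median was -0.02. In bulk samples fewer cells of a type and less RNA per cell cannot be told apart.

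Cdc25b had signals of 11.10 and 11.32 in neural tube and 10.34 and 9.37 in paraxial tissue in wild type, and of 11.08 and 10.88 in neural tube and 9.76 and 9.46 in paraxial tissue in mutants. All 4 neural tube values lay above all 4 paraxial values, and the wild-type paraxial value of embryo 1 was the closest to them. The difference within an embryo was 0.77 and 1.95 in the wild-type embryos 1 and 2, and 1.32 and 1.41 in the mutant ones. The average difference was 1.36 ± 0.19 (log2, SE), or 2.57-fold (limma adjusted p = 0.00699). Within wild type it was 1.36 ± 0.28 and was not called (limma adjusted p = 0.0571), and within mutants it was 1.37 ± 0.28 and was called (limma adjusted p = 0.0373). With quantile scaling, median scaling and normexp correction the wild-type difference was called too. The mutant call was lost in the 6 fits without 1 mutant array or mutant embryo (limma adjusted p from 0.183 to 0.343), and without an embryo block (0.213), with the replicate number as a block (0.132) and with the embryo as a fixed block (0.119). The 2 differences did not differ beyond their error (difference 0.01 ± 0.39, limma adjusted p = 1). The average call was lost when either mutant embryo was left out, with limma adjusted p of 0.063 without mutant embryo 1 and 0.082 without mutant embryo 2, and was kept when any one array or either wild-type embryo was left out (10 fits). The probe lies at chr2:131023911-131023970 (mm9).

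Cenpf had signals of 7.82 and 8.03 in neural tube and 6.88 and 7.18 in paraxial tissue in wild type, and of 7.46 and 7.75 in neural tube and 7.35 and 7.18 in paraxial tissue in mutants. The neural tube values lay above the paraxial values in both genotypes. Because Cenpf was not well above background in paraxial tissue, the size of its difference is uncertain. As measured, it was 1.86-fold higher in wild-type neural tube (limma adjusted p = 0.0478) and 1.53-fold on average (limma adjusted p = 0.0186). In mutants the measured difference was 1.27-fold and not called (limma adjusted p = 0.332). With quantile or cyclic loess scaling Cenpf was not called in wild type. Nor was it called there without an embryo block, with the number block or with the fixed embryo block. The wild-type call was lost in all 12 fits with 1 array or 1 embryo fewer (limma adjusted p from 0.054 to 0.434), and with normexp background correction the wild-type difference was 0.22 (limma adjusted p = 0.42). The average call was lost without a mutant paraxial array, mutant neural tube 2 or any embryo (limma adjusted p from 0.056 to 0.172). It was also lost with quantile scaling (limma adjusted p = 0.0507) and with normexp correction (limma adjusted p = 0.311). With normexp correction the average difference was 0.16, against 0.62 in the model described. The average call was also lost without an embryo block, with the number block and with the fixed embryo block (limma adjusted p = 0.137, 0.108 and 0.0676). The probe lies at chr1:191464978-191465037 (mm9).

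Prc1 had signals of 13.77 and 14.34 in neural tube and 12.92 and 13.72 in paraxial tissue in wild type, and of 14.42 and 14.03 in neural tube and 13.93 and 13.69 in paraxial tissue in mutants. In wild type the lowest neural tube value was close to the highest paraxial one, the latter from embryo 2, and the paraxial value of embryo 1 was the lowest of all. The difference was 0.73 ± 0.20 in wild type and 0.41 ± 0.20 in mutants, neither called, and 0.57 ± 0.14 on average (limma adjusted p = 0.0463). The average call was lost without any one mutant array, without wild-type neural tube 2 and without any embryo (limma adjusted p from 0.064 to 0.231), with median scaling (0.066), and without an embryo block, with the number block and with the fixed embryo block (0.381, 0.320 and 0.0617). The probe lies at chr7:87461048-87461107 (mm9).

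Within wild-type embryos Cenpf was the only one of the 34 genes called, against 2.46% of all genes (0.774% higher and 1.69% lower in neural tube). As it passed the background filter only through neural tube, this call is no support for a difference between tissues. With quantile scaling Cdc25b was called in its place. Within mutants Cdc25b was the only one of the 34 called, against 5.84% of all genes (2.68% and 3.16%). At an unadjusted p below 0.05 by limma, 4 of the 34 passed in wild type (17.9% of all genes), 3 in mutants (19.7%) and 6 on average (26.3%). In wild type the groups of the 2 arrays did not overlap for 6 genes higher in neural tube and for 6 lower, against 18.3% and 16.9% of all genes. In mutants this held for 10 and 3, against 16.5% and 19.6%. Cenpf is among the genes higher without overlap in both genotypes. It is also among those below the unadjusted limit in wild type and on average, and it adds no support to these counts. Ect2, which acts in cytokinesis, read 0.38 ± 0.18 in wild type and 0.44 ± 0.18 in mutants, with an average of 0.41 ± 0.13 that missed the threshold (limma adjusted p = 0.0867). Its values were 10.55 and 11.23 in neural tube and 10.33 and 10.69 in paraxial tissue in wild type, and 11.16 and 11.01 in neural tube and 10.68 and 10.61 in paraxial tissue in mutants, where the mutant groups did not overlap. Nusap1, a microtubule bundler, read 12.96 and 12.81 in neural tube and 12.71 and 12.77 in paraxial tissue in wild type, and 13.19 and 13.07 in neural tube and 12.80 and 12.44 in paraxial tissue in mutants, with differences of 0.15 ± 0.15 and 0.51 ± 0.15. Ttk, the kinase that starts the spindle checkpoint, went the other way in wild type, at -0.72 ± 0.21 (limma adjusted p = 0.141), with both neural tube arrays below both paraxial ones.

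Markers of neurons and progenitors also differed between tissues. Over the 20 markers of postmitotic neurons the summed signal ran from 605776 to 748653 in wild-type neural tube and from 460010 to 585825 in wild-type paraxial tissue, and in mutants from 566260 to 704082 and from 526920 to 551746. Chat was not well above background in mutant paraxial tissue, and the other 19 markers were measured on every array. The part of the makeup of neurons and progenitors in the differences of Cdc25b, Cenpf and Prc1 was not tested.

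**Figure D2:**
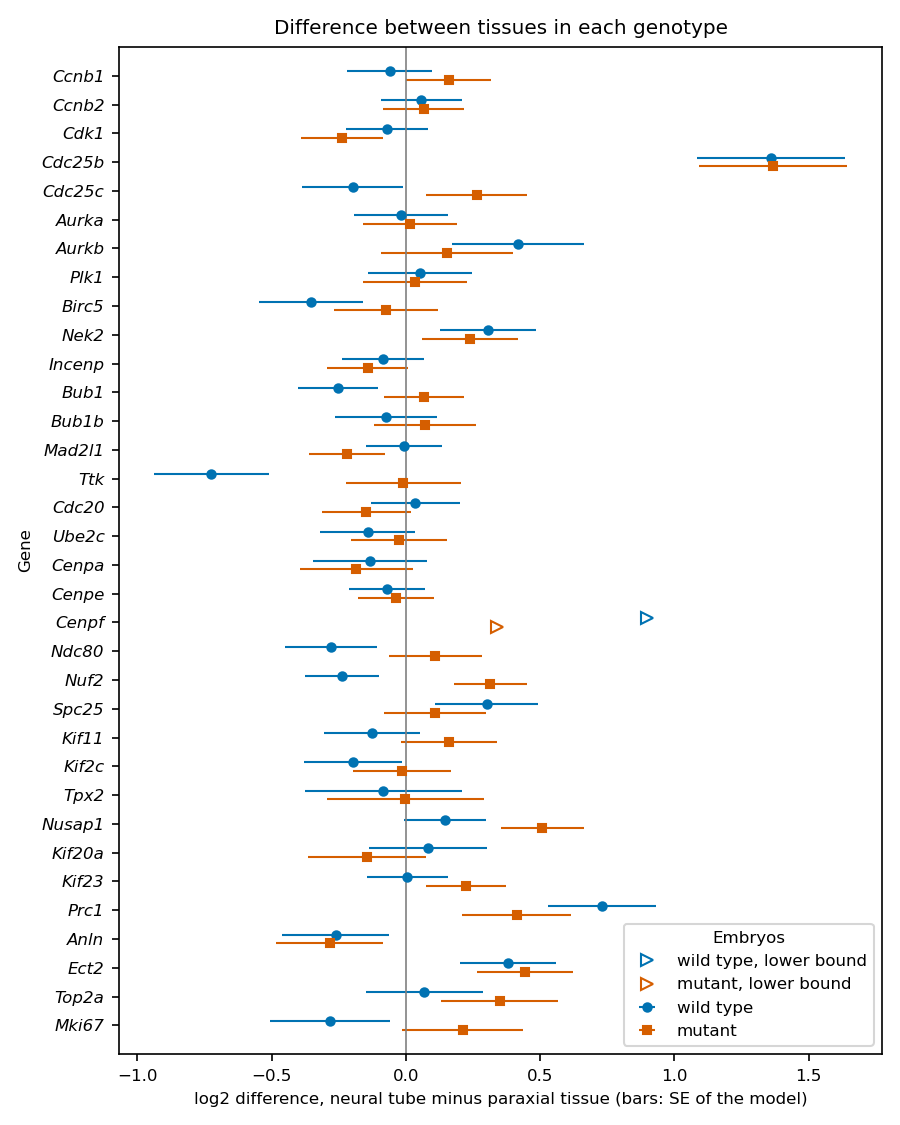
Points give the log2 difference between neural tube and paraxial tissue for each gene in wild type (circles) and mutants (squares). Bars give the standard error of the model, with 2 embryos per genotype. Open triangles without bars mark Cenpf, labelled as a lower bound in the legend. They show its measured differences, of uncertain size because its paraxial signal was near background. Cdc25b lies near 1.36 in both genotypes, and genes other than these and Prc1 lie between -0.72 and 0.51.

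Between genotypes, none of the 34 genes was called in neural tube, in paraxial tissue or on average. Most of them read somewhat higher in mutants: 31 of 34 in neural tube, with a median difference of 0.28, and 27 of 34 in paraxial tissue, with a median of 0.18. Without Cenpf, which was not well above background in paraxial tissue, it was 26 of 33 there, with a median of 0.16. Over all genes 49.2% and 53.4% were higher in mutants, with medians of -0.01 and 0.03. No gene of the array was called in either tissue or on average (0% of 28940 genes by limma), and at an unadjusted p below 0.05 the counts were 1050 genes (3.63%) with 1 of the 34 in neural tube, 971 (3.36%) with 0 in paraxial tissue and 850 (2.94%) with 0 on average. Under quantile, median and cyclic loess scaling and normexp correction the median of the 34 stayed above 0, from 0.18 to 0.37 in neural tube and from 0.08 to 0.28 in paraxial tissue, with 25 to 31 and 23 to 30 genes higher. Median scaling also moved the median of all genes, to 0.08 in neural tube and 0.12 in paraxial tissue, and normexp correction moved it to 0.07 and 0.08.

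Markers of other cell types and p53 target genes differed between the genotypes beside this. In paraxial tissue the summed signal of 9 erythroid genes ran from 591813 to 698331 in mutants against 350823 to 408460 in wild type, and that of 11 surface ectoderm genes from 340120 to 378199 against 252127 to 285317. For 10 genes of endothelium it ran from 106141 to 115378 against 66644 to 85248, and for 8 of macrophages from 61664 to 76785 against 47169 to 57342. The macrophage genes overlapped when each was centred on its own mean and the log2 values were averaged. Mutant paraxial tissue 1 then read -0.19, below wild-type paraxial tissue 1 (0.26) and 2 (0.13), while mutant paraxial tissue 2 read 0.94. For 14 genes of differentiating muscle the summed signal was the lower in mutants, from 77332 to 157901 against 165609 to 300147. Cav3 was not well above background in mutant paraxial tissue. For 26 p53 target genes the sums were the higher in mutants in both tissues, from 311628 to 382510 against 202256 to 249155 in paraxial tissue and from 248517 to 278065 against 196294 to 217400 in neural tube. In neural tube the sums of 16 neural progenitor genes also did not overlap, from 479825 to 486399 in mutants against 419842 to 463350. The averages of their centred log2 values did overlap. Mutant neural tube 1 read 0.824, below the 0.828 of wild-type neural tube 2. Mutant neural tube 2 read 0.829, and wild-type neural tube 1 was the lowest at 0.646. Apart from Cav3, all genes of these lists were well above background on the arrays compared. The part of these differences in the mitotic signal was not tested.

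In neural tube both mutant values lay above both wild-type values for 15 of the 34 genes and below them for 2, against 16.5% and 15.4% of all genes. In paraxial tissue this held for 11 and 2, against 22.6% and 14.7%. Cdk1, Plk1, Cenpe, Ndc80, Incenp and Mki67 were higher without overlap in both tissues, which come from the same embryos. Those lower without overlap were Cdc25b and Cenpf in neural tube and Bub1b and Nuf2 in paraxial tissue.

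Cdk1, its cyclins and the Cdc25 phosphatases form the switch into mitosis. Of these 5 genes 4 read higher in mutant neural tube, with a median of 0.30, and 3 in mutant paraxial tissue, with a median of 0.04. Cdk1 had signals of 12.05 and 12.20 in wild type and 12.59 and 12.38 in mutants in neural tube, and of 12.01 and 12.39 in wild type and 12.82 and 12.63 in mutants in paraxial tissue. Mutant values were the higher in both tissues, without overlap, and the differences were 0.36 ± 0.24 and 0.53 ± 0.24, of which the second is the smallest unadjusted p of the 34 genes in paraxial tissue (0.0667; limma adjusted p = 0.996). Ccnb1, the main mitotic cyclin, read 16.51 and 16.19 in wild type and 16.81 and 16.49 in mutants in neural tube, and 16.42 and 16.40 in wild type and 16.61 and 16.37 in mutants in paraxial tissue. In both tissues the genotypes overlapped, and its other probes read from 0.02 to 0.24 in neural tube and from -0.18 to 0.23 in paraxial tissue. Ccnb2, the second B-type cyclin, differed by 0.05 and 0.04. Cdc25c, the phosphatase that acts as mitosis begins, read 11.82 and 11.32 in wild type and 11.92 and 11.86 in mutants in neural tube, and 11.75 and 11.78 in wild type and 11.47 and 11.78 in mutants in paraxial tissue. It was higher without overlap in mutant neural tube only, by 0.32 ± 0.30, and its difference between tissues in that change was 0.46 ± 0.27 (limma adjusted p = 0.96). Cdc25b stood apart from these: it read lower in mutants of both tissues, with differences of -0.23 ± 0.44 and -0.24 ± 0.44, within the error.

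The other mitotic kinases and the chromosomal passenger complex were higher in mutants in 5 of 6 genes in neural tube and in 6 of 6 in paraxial tissue, with medians of 0.33 and 0.25. Plk1, the Polo kinase that drives spindle formation and cyclin B activation, had signals of 12.59 and 13.02 in wild type and 13.64 and 13.04 in mutants in neural tube, and of 12.46 and 13.04 in wild type and 13.51 and 13.10 in mutants in paraxial tissue. The mutant embryo 1 was high and the wild-type embryo 1 low in both tissues, while the embryos numbered 2 lay within 0.06 of each other. The differences were 0.53 ± 0.31 and 0.56 ± 0.31, the latter the largest of the 34 genes in paraxial tissue. Aurka, the centrosomal Aurora kinase, read 12.67 and 13.23 in wild type and 13.54 and 13.19 in mutants in neural tube, and 12.85 and 13.09 in wild type and 13.46 and 13.24 in mutants in paraxial tissue, without overlap in the second alone. Aurkb, the kinase of the passenger complex, read 10.52 and 11.31 in wild type and 10.94 and 10.52 in mutants in neural tube, and 10.52 and 10.46 in wild type and 10.90 and 10.26 in mutants in paraxial tissue. Its highest value was that of wild-type neural tube 2, and its neural tube difference was -0.18 ± 0.39. Birc5 (survivin), which anchors the same complex at centromeres, read 15.65 and 15.19 in wild type and 16.10 and 15.70 in mutants in neural tube, and 15.68 and 15.87 in wild type and 16.10 and 15.84 in mutants in paraxial tissue, and was higher without overlap in mutant neural tube by 0.48 ± 0.31. Incenp, the scaffold of the complex, differed by 0.25 and 0.31, and Nek2, a centrosome kinase, by 0.03 and 0.10.

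The 4 spindle checkpoint genes read higher in mutant neural tube by up to 0.78, with Bub1b at 0.00 ± 0.30. Ttk (Mps1) had the largest difference of the 34 genes there, with signals of 10.47 and 10.67 in wild type and 11.62 and 11.09 in mutants. Both mutant values exceeded both wild-type values, and the difference was 0.78 ± 0.34, or 1.72-fold (limma adjusted p = 0.921). In paraxial tissue Ttk read 11.06 and 11.53 in wild type and 11.24 and 11.48 in mutants, with overlapping groups and a difference of 0.07 ± 0.34. The 2 wild-type neural tube values were the lowest of the 8 for this gene, and the difference between the tissues in the mutant change was 0.71 ± 0.30 (unadjusted p = 0.0508, limma adjusted p = 0.957). Bub1, a kinase that recruits the checkpoint to kinetochores, was read by 10 spots an array, except for 7 on mutant neural tube 2. It differed by 0.41 ± 0.24 in neural tube, where its groups did not overlap, and by 0.09 ± 0.24 in paraxial tissue. The spots of its probe agreed within an SD of 0.05 to 0.09 (log2) on an array. Bub1b (BubR1), an inhibitor of the anaphase promoting complex, read 11.30 and 11.96 in wild type and 11.72 and 11.56 in mutants in neural tube, and 11.64 and 11.78 in wild type and 11.50 and 11.63 in mutants in paraxial tissue. The genotypes overlapped in neural tube and mutants were lower in paraxial tissue, with a difference of -0.14 ± 0.30. Mad2l1, which captures Cdc20, read 15.12 and 15.37 in wild type and 15.39 and 15.36 in mutants in neural tube, and 15.14 and 15.37 in wild type and 15.63 and 15.56 in mutants in paraxial tissue, higher without overlap in mutant paraxial tissue by 0.34 ± 0.22.

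Cdc20 and Ube2c act on the anaphase promoting complex, the first as its activator and the second as the enzyme that starts its ubiquitin chains. Cdc20 read 15.57 and 16.04 in wild type and 15.98 and 15.70 in mutants in neural tube, and 15.56 and 15.98 in wild type and 16.11 and 15.87 in mutants in paraxial tissue. The genotypes overlapped in both tissues, with differences of 0.03 ± 0.26 and 0.21 ± 0.26. Ube2c read 15.80 and 15.58 in wild type and 16.35 and 15.92 in mutants in neural tube, and 15.72 and 15.94 in wild type and 16.39 and 15.93 in mutants in paraxial tissue. The embryo 1 mutant arrays were the highest of their tissues, and the differences were 0.44 ± 0.28, without overlap, and 0.32 ± 0.28, with overlap.

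Of the 6 centromere and outer kinetochore genes 5 read higher in mutant neural tube, with a median of 0.28, and 4 of the 5 measured in paraxial tissue did so there, with a median of 0.29. Ndc80 (Hec1), which binds microtubules at the kinetochore, had the smallest unadjusted p of the 34 genes in neural tube, with signals of 12.84 and 12.64 in wild type and 13.57 and 13.27 in mutants. The mutant values lay above the wild-type values by 0.68 ± 0.27, or 1.6-fold (unadjusted p = 0.0424, limma adjusted p = 0.921). In paraxial tissue Ndc80 read 12.98 and 13.06 in wild type and 13.21 and 13.41 in mutants, also without overlap, and differed by 0.29 ± 0.27. Nuf2, its partner in the same complex, read 10.08 and 9.99 in wild type and 10.58 and 10.44 in mutants in neural tube, and 10.32 and 10.22 in wild type and 10.20 and 10.20 in mutants in paraxial tissue. It was higher in mutant neural tube by 0.48 ± 0.22 and lower in mutant paraxial tissue (-0.08 ± 0.22), both without overlap. This difference between tissues was 0.55 ± 0.19, the only one of the 34 with an unadjusted p below 0.05 (0.0248; 5.17% of all genes), and it did not pass (limma adjusted p = 0.933). Spc25, another subunit, differed by 0.16 and 0.35. Cenpe, a kinetochore motor, read 13.88 and 13.89 in wild type and 14.41 and 14.17 in mutants in neural tube, and 13.92 and 13.99 in wild type and 14.45 and 14.20 in mutants in paraxial tissue. Its mutant values were the higher in both tissues, by 0.40 ± 0.22 and 0.37 ± 0.22. Cenpa, the centromeric histone H3, read 12.82 and 13.24 in wild type and 13.55 and 12.67 in mutants in neural tube, and 13.07 and 13.25 in wild type and 13.58 and 13.01 in mutants in paraxial tissue, and in both tissues the 2 mutant embryos stood on either side of both wild-type ones. Cenpf, with the values given above, was lower in mutant neural tube (-0.32 ± 0.27), and no difference is given for paraxial tissue, where it was not well above background.

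The 4 spindle motor and microtubule genes were all higher in mutant neural tube, by a median of 0.33, and 3 of 4 in paraxial tissue, by 0.14. Kif11 (Eg5), the motor that separates spindle poles, read 10.84 and 11.05 in wild type and 11.43 and 11.19 in mutants in neural tube, and 10.97 and 11.17 in wild type and 10.98 and 11.33 in mutants in paraxial tissue, with differences of 0.36 ± 0.28, without overlap, and 0.08 ± 0.28. Tpx2, which activates Aurora A on the spindle, read 14.12 and 12.97 in wild type and 14.12 and 13.55 in mutants in neural tube, and 13.64 and 13.62 in wild type and 14.07 and 13.60 in mutants in paraxial tissue. Wild-type neural tube 2 was low and the other values overlapped, and its 2 probes disagreed in sign in neural tube (0.29 and -0.09). Kif2c (MCAK), a microtubule depolymerase, differed by 0.45 ± 0.29 and 0.26 ± 0.29, and Nusap1 by 0.24 and -0.12.

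The 5 genes of the central spindle and cytokinesis were all higher in mutant neural tube, by a median of 0.20, and 4 of 5 in paraxial tissue, by 0.46. Kif20a, a kinesin of the central spindle, read 10.65 and 11.13 in wild type and 11.62 and 10.71 in mutants in neural tube, and 10.69 and 10.93 in wild type and 11.58 and 11.05 in mutants in paraxial tissue. Mutant embryo 1 was high in both tissues, and the groups overlapped in neural tube alone. The differences were 0.28 ± 0.35 and 0.50 ± 0.35. Anln (anillin), the scaffold of the contractile ring, read 10.36 and 9.96 in wild type and 10.86 and 10.34 in mutants in neural tube, and 10.31 and 10.53 in wild type and 11.07 and 10.70 in mutants in paraxial tissue, with differences of 0.44 ± 0.32 and 0.46 ± 0.32, the second without overlap. Prc1 differed by 0.17 ± 0.32 and 0.49 ± 0.32, Ect2 by 0.20 and 0.14, and the central spindle kinesin Kif23 by 0.14 and -0.08.

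Top2a and Mki67 encode proteins of the mitotic chromosome, the first a topoisomerase that untangles sister chromatids and the second the surface protein Ki-67. Top2a read 12.26 and 11.81 in wild type and 12.56 and 11.92 in mutants in neural tube, and 11.99 and 11.93 in wild type and 11.84 and 11.94 in mutants in paraxial tissue, where the genotypes overlapped in each. Mki67 read 15.17 and 14.51 in wild type and 15.62 and 15.38 in mutants in neural tube, and 15.02 and 15.22 in wild type and 15.25 and 15.33 in mutants in paraxial tissue. Its mutant values were the higher in both tissues, by 0.66 ± 0.36 and 0.16 ± 0.36, but its second probe gave 0.07 and -0.17. Of the 9 genes with several kept probes, all probes had 1 sign in neural tube for 8 and in paraxial tissue for 7.

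**Figure D3:**
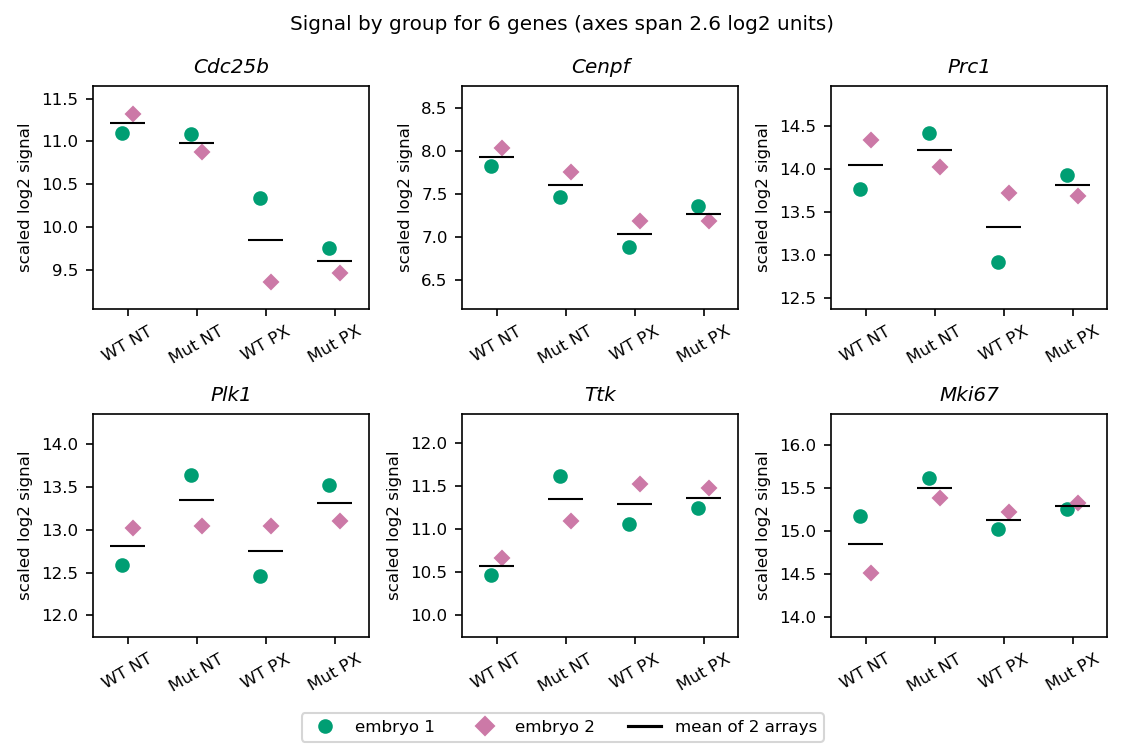
Scaled log2 signal of 6 genes on the 8 arrays by group (WT, wild type; Mut, mutant; NT, neural tube; PX, paraxial tissue), with circles for embryo 1, diamonds for embryo 2 and a line at the mean of the 2 arrays; every panel spans the same range of log2 units, but panels start at different levels, since levels of different genes are not comparable. Cdc25b and Prc1 are higher in neural tube, and Plk1 is high in mutant embryo 1 and low in wild-type embryo 1 of both tissues. Cenpf also reads higher in neural tube, but it was not well above background on any paraxial array, so its difference is of uncertain size.

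The excess in mutants was larger in the embryos numbered 1 than in those numbered 2. Within the first slide row the median difference of the 34 genes between mutant and wild type was 0.48 in neural tube, with 31 genes higher, and 0.40 in paraxial tissue, with 28 higher. Within the second row it was 0.13 with 20 higher, and -0.0015 with 16 higher. Without Cenpf the paraxial medians were 0.37 and -0.00023. Over all genes the medians were -0.08, -0.004, 0.04 and 0.04 in the same order. Differences above 0.5 were seen for 15 and 12 of the 34 genes in the first row and for 5 and 0 in the second, against 16.8%, 19.3%, 18.0% and 9.15% of all genes.

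Mutant neural tube 1 was the highest of the 4 neural tube arrays for 27 of the 34 genes (29.3% of all genes) and mutant paraxial tissue 1 the highest of its 4 for 20 (34.5%). Wild-type neural tube 1 was the lowest for 18 (21.0%) and wild-type paraxial tissue 1 for 22 (31.5%). Mutant neural tube 2 was the highest for 0 of the 34 (16.1% of all genes). The mean of the 34 genes, each centred on its own mean, was 0.33 in mutant neural tube 1 and 0.01 in mutant neural tube 2, against -0.13 and -0.06 in wild type. The paraxial arrays gave 0.14 and -0.03 in mutants against -0.21 and -0.05. Without mutant embryo 1 the median difference was 0.16 in neural tube and 0.09 in paraxial tissue, and without mutant embryo 2 it was 0.48 and 0.33. Without wild-type embryo 1 it was 0.27 and 0.09, and without wild-type embryo 2 it was 0.33 and 0.30.

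Single genes differed in how far they followed this. Plk1 differed by 1.04 and 1.05 in the first row and by 0.03 and 0.06 in the second, in neural tube and paraxial tissue. Kif20a differed by 0.97 and 0.89 in the first and by -0.42 and 0.11 in the second. Ndc80 differed by 0.73 and 0.23 in the first and by 0.62 and 0.34 in the second, and so read higher in mutants in both. Mki67, by its brightest probe, differed more in the second row in neural tube, at 0.44 and 0.88. Its second probe did not show this order. In embryos 1 and 2 it read 13.15 and 13.29 in wild-type neural tube, and 13.29 and 13.30 in mutant neural tube.

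Neuron markers moved with the same embryos. Over the 20 postmitotic neuron genes the mean centred signal was -0.19 in mutant neural tube 1 and 0.83 in mutant neural tube 2, against 0.84 and 0.78 in wild type, so that the array with the highest mitotic signal had the lowest neuron signal of neural tube. The paraxial arrays gave -1.0 and -0.90 in mutants and 0.38 and -0.73 in wild type. In neural tube the summed signal of these genes ran from 566260 to 704082 in mutants and from 605776 to 748653 in wild type, and all 20 were well above background on the 4 arrays. The part of the share of neurons in the mitotic signal was not tested.

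**Figure D4:**
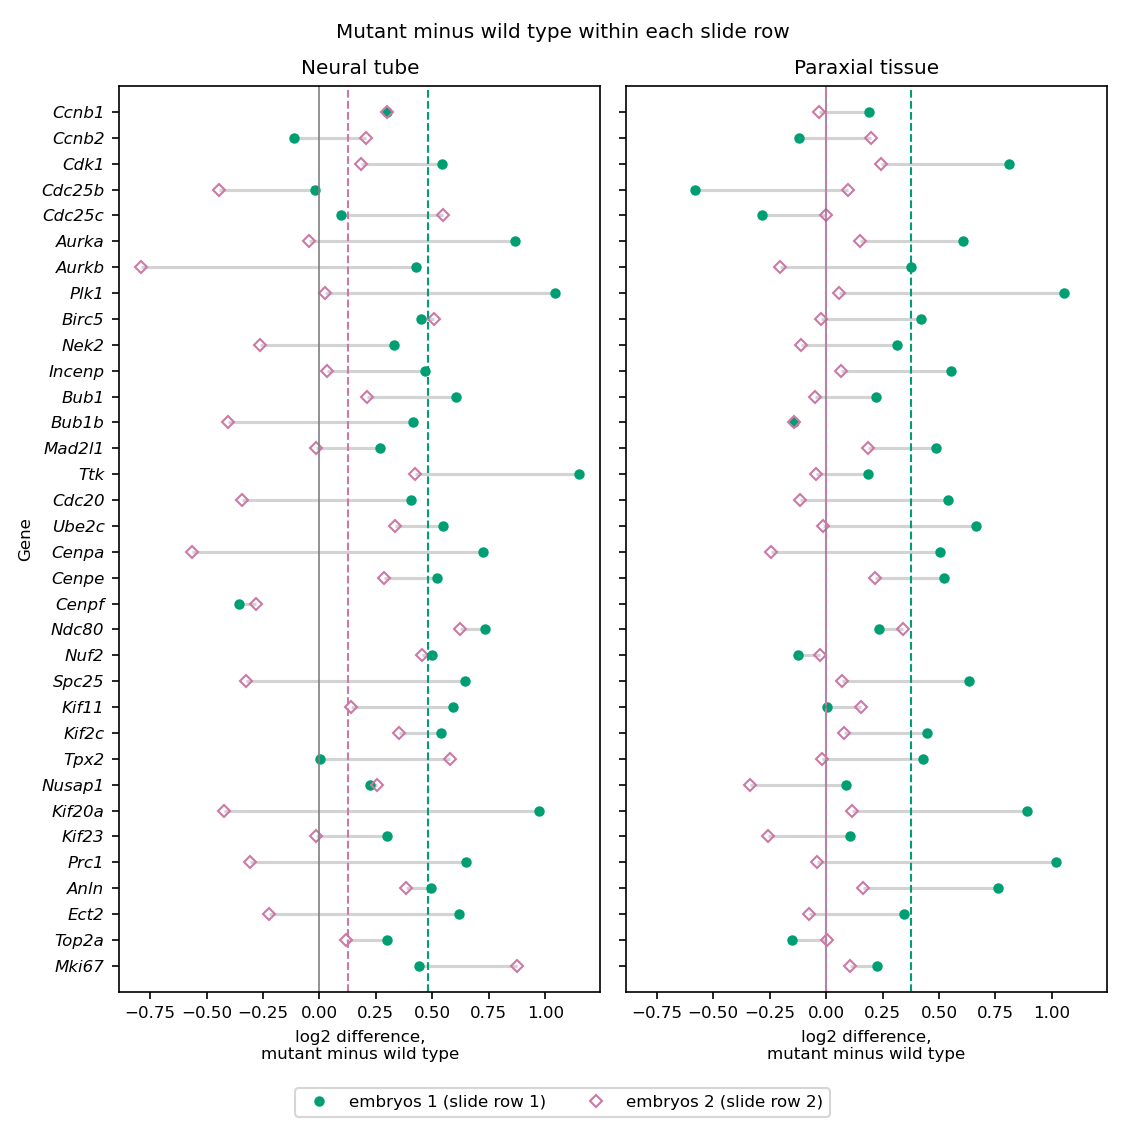
For each gene the log2 difference between the mutant and the wild-type array of the same slide row is plotted, with filled circles for the embryos numbered 1 and open diamonds for the embryos numbered 2, in neural tube (left) and paraxial tissue (right). Dashed lines mark the medians, those of the 34 genes, 0.48 and 0.13, in neural tube and those of 33 genes, 0.37 and -0.00023, in paraxial tissue, where Cenpf was not well above background and is not drawn.

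None of the 34 genes was called for a difference between tissues in the effect of genotype, and 0% of all genes were, with 1495 genes (5.17%) at an unadjusted p below 0.05 by limma. The median of this difference was 0.05, and 21 of 34 genes were above 0. It moved to 0.19 without mutant neural tube 2 and to -0.03 without mutant neural tube 1.

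Other genes of the cell cycle were read in the same way, from lists drawn up by gene function with earlier results of these data known. Of 86 further genes of G2 and mitosis 83 were measured, and Kif14, Kif18a and Kifc1 were not. In mutants 64 of the 83 were higher in neural tube (median 0.25) and 63 in paraxial tissue (median 0.13), with 0 called in either. Between tissues 1 of the 83 was called on average, against 11.9% of all genes. It was Pbk, a mitotic kinase, which was higher in neural tube by 0.70 ± 0.18 (limma adjusted p = 0.047). Of 42 S phase genes 38 were higher in mutant neural tube (median 0.35) and 37 in mutant paraxial tissue (median 0.27), with 0 called. Ccne2 is counted among the 42, although it was not well above background in paraxial tissue of either genotype. Between tissues E2f2 and E2f1, transcription factors of S phase entry, were called on average, again in a comparison that called 11.9% of all genes. They were higher in neural tube by 0.55 ± 0.10 and 0.58 ± 0.13 (limma adjusted p = 0.0182 and 0.0355).

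Mutant neural tube 1 was the highest array in both lists, as it was for the 34 genes, while the order of the other arrays differed between the lists. The mean centred signal of the S phase genes was 0.44 in mutant neural tube 1, -0.07 in mutant neural tube 2, 0.23 and -0.03 in the mutant paraxial arrays, -0.23 and -0.03 in wild-type neural tube and -0.27 and -0.03 in wild-type paraxial tissue. For the further G2 and mitosis genes it was 0.32, -0.04, 0.14, -0.04, -0.16, -0.04, -0.14 and -0.03 in that order. Of the genes of cell cycle exit and inhibitors of cyclin-dependent kinases 10 were measured. Among them, Cdkn2c was well above background in wild-type neural tube alone and passed the filter only through that group. On average 5 of the 10 were called higher in neural tube and 1 lower, against 5.94% and 6% of all genes. Cdkn2c was not taken out of these counts, and a call of it would be no support for a difference between tissues. Cdkn1a (p21) was the lower one, with a difference of -1.49 ± 0.16 (log2; limma adjusted p = 0.00341), and Rb1, the retinoblastoma protein, was higher by 0.71 ± 0.10 (limma adjusted p = 0.00588). Between genotypes 0 of the 10 were called. The tissue calls of these 10 genes, and those of Pbk, E2f2 and E2f1, were not followed under the other settings.

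Across the 8 arrays, which share embryos and scaling, each gene was set beside the mean of the other 33. Pearson's r had a median of 0.59, and 25 of the 34 genes were above 0.5, against 21.2% of all genes and a median of 0.005. Plk1 followed the others most closely (r = 0.93, n = 8 arrays). Cdc25b (-0.04), Ccnb2 (-0.01), Cenpf (0.05, near background on 4 arrays), Bub1b (0.07) and Cdc25c (0.09) did so least. The median was 0.64 for the 83 further mitosis genes, 0.79 for the S phase genes and -0.35 for the neuron markers. These values describe 8 arrays from 4 embryos. The SD of a gene over the 8 arrays had a median of 0.29 among the 34 genes, from 0.14 to 0.79, and of 0.35 over all genes.

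The number of arrays limits the precision. The 95% interval of a mutant difference in 1 tissue had a median half-width of 0.67 (log2), and lay within 1 on either side of 0, a 2-fold change, for 18 of the 34 genes in neural tube and 22 of 33 in paraxial tissue, Cenpf left out. For the average difference between tissues the half-width was 0.30, and the interval lay within these bounds for 32 of the 33 genes other than Cenpf, Cdc25b being the exception.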

How the data were processed

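The genes and the lists set beside them were chosen with earlier results of these data known. Agilent Feature Extraction 11.0.1.1 gave the red-channel intensity values, per the submitters' processing notes and the file headers; it subtracted background and detrended each array. The deposited intensity values are linear, and a copy of them by the authors, equal within 0.497%, was used as an alternative. RNA was laser-captured and labelled with Cy5, per the labels' protocols.

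Control spots and spots marked as outliers were left out, spots of a probe were averaged, and log2 values were scaled to the 75th percentile of each array. Probes that both arrays of some group showed well above background were kept (42754), and the brightest stood for each of 28940 genes. A model of 4 group means was fitted with limma 3.58.1 in R 4.3.3 (files read with data.table, version 1.17.8), with the embryo as a random block. The labels say that both tissues came from the same embryo, and they deviated together (r over all genes, 0.56 for wild-type and 0.61 for mutant embryos). The consensus correlation was 0.60, with 4 residual and 2.93 prior degrees of freedom. Benjamini-Hochberg adjustment ran over all genes at 0.05. The code was tested on simulated arrays. For a gene not well above background in a group, the fold was the brighter mean over, per array, the higher of that gene and the dimmest probe well above background. For Cenpf its own value was never the lower, so its fold is the measured one and not a bound. Intervals are from the same model. Every gene is described by role, and values on every array are given for a fixed set of genes, for each gene called and for the 4 with the smallest p in each comparison. The probe sites are on mm9, for which no annotation was used here, so their place in a transcript is not stated; promoters are on GRCm38.p6, from RefSeq. Alternatives were 3 other scalings, normexp background correction (offset 50), no filter on dim probes, the mean of all probes, the authors' copy, other blocks, and each array or embryo left out.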

Additional observations from a re-analysis of the deposited data

How the results depend on the processing

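No called difference of a single gene changed sign. The median of the 34 genes, which has no test, did: between tissues it went from -0.065 to 0.011 (cyclic loess) and 0.056 (slide row 1) in wild type, from 0.070 to -0.042 (row 2) in mutants and from -0.0019 to 0.10 (row 1) on average, and for the difference of the genotype change from 0.049 to -0.0039 (row 2). The values within slide rows, those without Cenpf and the correlation of 0.60 taken from all 8 arrays for fits without an embryo were added after seeing the data. Within slide row 1 and row 2 the median of the 34 genes was 0.48 and 0.13 in neural tube, 0.40 and -0.0015 in paraxial tissue and 0.42 and 0.072 on average. With 1 array or 1 embryo left out it ran from 0.16 to 0.48, from 0.095 to 0.33 and from 0.16 to 0.34, and for the difference of the genotype change from -0.031 to 0.19. Between tissues in wild type 1 of the 34 genes was called, and 2 with median scaling, 0 with cyclic loess and 3 with normexp correction, where 1508 genes were called in all. Without the replicate block, with the replicate number as a block and with the embryo as a fixed block, 4, 109 and 51 genes were called in wild type (713 in the model described) and 0, 0 and 0 of the 34. In mutants 0, 69 and 211 were called (1689) and 0, 0 and 0 of the 34. On average 595, 1154 and 1974 were called (3457) and 1, 1 and 1 of the 34, Cdc25b each time. With normexp correction 1639 genes were higher and 2526 lower in neural tube on average, against 1720 and 1737. The number block was no pairing by design: wild-type and mutant embryos of 1 number deviated together with r across genes of 0.29. Cyclic loess called 4 genes for the difference of the genotype change. With 1 array or 1 embryo left out, calls ran from 31 to 2683 in wild type (0 to 1 of the 34), from 0 to 3201 in mutants (0 to 1) and from 794 to 6480 on average (0 to 6), from 0 to 17 between genotypes in paraxial tissue, from 0 to 32 for the difference of the genotype change, and stayed at 0 of the 34 for every genotype comparison. The 6 were reached without wild-type neural tube 1 and added Anln, Aurkb and Ect2. The cause was not tested. Cenpf in paraxial tissue lies near background, so its size there is not known.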
